A study of Saccharomyces cerevisiae BY4741 with 8 samples.

Results

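The comparison described here set BY4741(*yrr1*Δ), a strain of *Saccharomyces cerevisiae* that lacks the transcription factor gene *YRR1*, against its parent BY4741, a haploid MATa laboratory strain, both grown in SD with 5 mM vanillin. The libraries were chosen by their labels, 2 of each strain, which is 4 of the 8 libraries in the series. The other 4 libraries came from the same strains in SD without vanillin, 2 of each, and served to estimate the spread and to show which differences were also present there. SD was a synthetic medium with glucose, ammonium sulfate and an amino acid supplement. Cultures grew from an OD600 of 0.2 and were collected in the log phase, at 1.6 to 2.0. The methods call the 2 replicates of each condition biological. The question was which functions differ between the strains when the cells meet vanillin, a phenolic aldehyde released from lignocellulose that slows yeast growth. The paper reports that BY4741(*yrr1*Δ) grew faster and consumed vanillin faster than BY4741 at this concentration. The part of growth rate and of vanillin use in the differences below was not tested.

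Yrr1p is a zinc cluster activator of the multidrug resistance network. It binds a short element in the promoters of transporter genes such as *SNQ2* and is known to act with related factors such as Pdr1p and Yrm1p. Yeast reduces vanillin to the less toxic vanillyl alcohol with NADPH- or NADH-dependent reductases. Genes for the use of poor nitrogen sources are held down by nitrogen catabolite repression, in which the GATA factors Gln3p and Gat1p are kept out of the nucleus while good nitrogen sources are at hand. Genes for zinc uptake are switched on by the activator Zap1p when zinc is scarce, and Zap1p also raises its own gene.

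The expected counts of a library, estimates of the reads that came from each gene, summed to 2195324 to 2453837. *YRR1* (YOR162C, chromosome XV from 639560 to 641992 in R64) had 0 and 1 counts in BY4741(*yrr1*Δ) with vanillin, against 82 and 100 in BY4741, at least 36.0-fold lower with 3 counts in each library as the floor. The strain background was checked with its markers. *URA3* and *LEU2*, which are deleted in BY4741, had 0 to 2 counts in the libraries, and *MET17* had 0 to 9. Of the 4 auxotrophy genes listed, 1 had enough counts to be tested. With vanillin it was lower in BY4741(*yrr1*Δ) (log2 fold change -0.93, adjusted p = 0.127, edgeR). *MET5*, which the study's genotype gives as the deleted gene, had 300 to 585 counts. Of 6 MATa-specific genes listed, 4 were tested, and *STE2*, *BAR1* and *STE6* were expressed in every library. Of 5 MATalpha-specific genes listed, 4 also had enough counts to be tested. With vanillin, 2 of these were lower in BY4741(*yrr1*Δ) and 0 higher at an unadjusted p under 0.05 (edgeR). The alpha pheromone gene *MF(ALPHA)1* had 4 and 3 counts in BY4741(*yrr1*Δ) with vanillin and 26 and 22 in BY4741 (adjusted p = 0.051), and 0 or 1 in each library in SD.

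With vanillin, 34 of 5506 genes tested differed between the strains at an adjusted p of at most 0.05 (quasi-likelihood F test of edgeR, Benjamini-Hochberg adjusted), a share of 0.618%. Of these, 32 were lower in BY4741(*yrr1*Δ) (0.581% of the genes tested) and 2 were higher (0.0363%), *ADH7* and *SCH9*. The 32 include *RDN37-1* and *RDN37-2*, copies of 1 rRNA gene with equal counts in every library, so 2 of the calls are 1 measurement. The split into lower and higher genes depended on the fit. DESeq2 called 165 lower and 99 higher, and edgeR on only the 4 vanillin libraries called 161 lower and 156 higher. An unadjusted p under 0.05 was reached by 1263 genes (22.9%), of which 726 were lower (13.2%) and 537 higher (9.75%) in BY4741(*yrr1*Δ). At the limits stated in the methods, a change of at least 2-fold with an FDR of at most 0.001, edgeR called 0 genes (0%), and DESeq2 called 27. The methods name no tool for the test, so these are not the study's own counts. The paper reports a larger number of changed genes for this comparison. Of the 34 genes, 33 differed by at least 2-fold. In all 34 the libraries of the strains did not overlap, which was also true of 30.1% of all genes on the lower side and 27.5% on the higher side. The number of calls rested on each of the vanillin libraries. It fell to 2 without replicate 1 of BY4741(*yrr1*Δ), 1 without its replicate 2, 5 without replicate 1 of BY4741 and 5 without its replicate 2. Without 1 of the SD libraries it was 52 and 54 (replicates 1 and 2 of BY4741(*yrr1*Δ)) and 17 and 22 (replicates 1 and 2 of BY4741). When counts were scaled to library size alone, the median log2 fold change of all genes was 0.14 in place of -0.014, and the calls were 24 lower and 8 higher. Apart from *YRR1*, no gene kept an adjusted p of at most 0.05 in every fit with a library left out. The direction of all 34 was kept in every alternative that was run. Genes with large differences and libraries that do not overlap could hardly change direction, so this is a weak check.

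**Figure D1:**
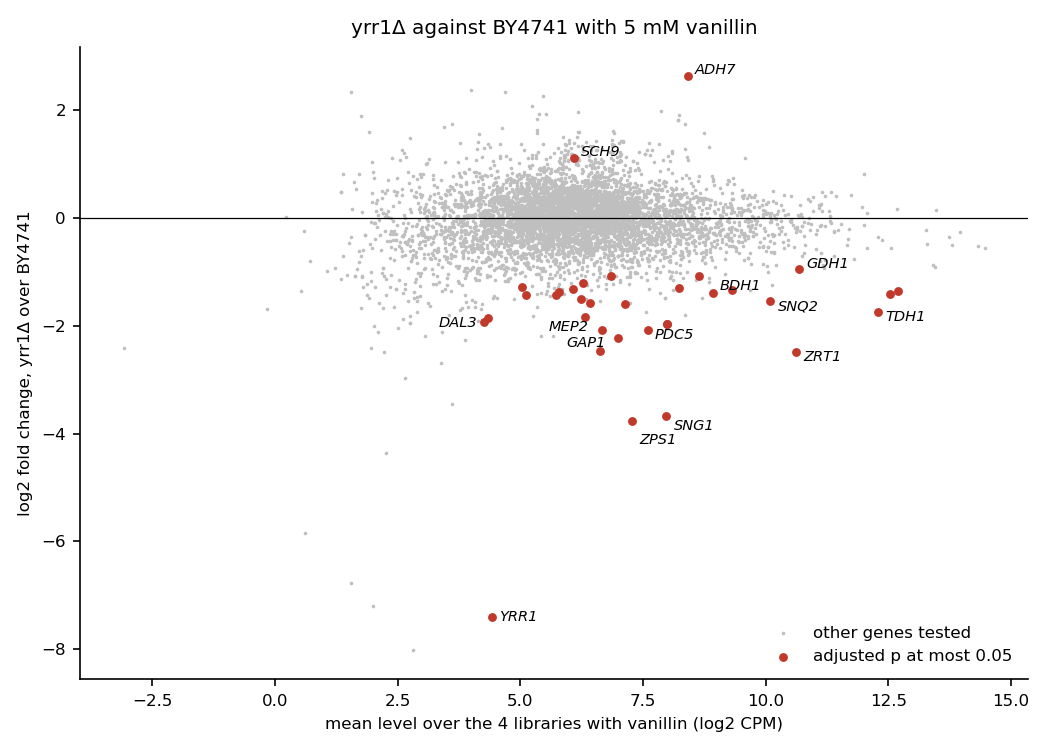
Log2 fold change of BY4741(*yrr1*Δ) over BY4741 with vanillin (vertical) against the mean level over the 4 vanillin libraries in log2 CPM (horizontal), 1 point per gene tested. The 34 genes at an adjusted p of at most 0.05 are red, and 32 of them lie below 0; the point of *YRR1* is a fitted value with nearly no counts in the deletion strain.

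Of the known and proposed targets of Yrr1p, *SNG1*, *YLL056C* and *SNQ2* fell in BY4741(*yrr1*Δ). *SNG1* (YGR197C, chromosome VII from 892497 to 894140), a membrane protein of drug resistance, had 42.3 and 30.9 CPM (counts scaled to the TMM-normalized size of the library) in BY4741(*yrr1*Δ) with vanillin, against 431 and 502 CPM in BY4741. It fell by 3.67 on the log2 scale (standard error 0.34, adjusted p = 0.0057, edgeR). In SD it had 49.6 and 28.6 CPM in BY4741(*yrr1*Δ) and 30.7 and 52.4 CPM in BY4741, so that only BY4741 with vanillin stood apart from the other groups. Fewer cells with the transcript and less of it per cell cannot be told apart in these bulk cultures. *YLL056C*, a putative short-chain reductase, fell to 36.3 and 34.0 CPM, against 122 and 129 CPM in BY4741 (log2 fold change -1.83 ± 0.22 SE, adjusted p = 0.0099). *SNQ2*, the ABC transporter that pumps out many drugs, had 535 and 579 CPM in BY4741(*yrr1*Δ) and 1514 and 1737 CPM in BY4741 (-1.54 ± 0.18, adjusted p = 0.0087). Both strains had more *SNQ2* with vanillin than in SD, where the levels were 175 and 216 CPM in BY4741(*yrr1*Δ) and 199 and 172 CPM in BY4741.

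Of the 11 targets listed, all tested, these 3 were called lower, as were 0.581% of all genes, and none higher, as were 0.0363%. The median log2 fold change was -0.65, where that of all genes was -0.014. The list was gathered from what is known of Yrr1p, so that it is no independent evidence of the direction. At an unadjusted p under 0.05, 7 were lower (63.6%, against 13.2% of all genes). At that p 1 was higher (9.09%, against 9.75%), *LAF1* (YMR102C, 0.69, adjusted p = 0.146). *CIS1* (YLR346C) had 6.78 and 7.83 CPM in BY4741(*yrr1*Δ) against 32.1 and 14.5 CPM in BY4741 (-1.66, adjusted p = 0.117). *YLR046C*, an RTA1-family membrane protein, had 210 and 150 against 344 and 382 CPM (-1.01, adjusted p = 0.073; 0.0085 in DESeq2). The transporters *FLR1* (-0.47), *AZR1* (0.37) and *YOR1* (0.09), the putative aryl alcohol dehydrogenase *YPL088W* (-0.65) and *YLR179C* (-0.55) had adjusted p-values of 0.193 to 0.807. The libraries of *AZR1* and *YOR1* overlapped between the strains, and *YOR1* was slightly lower (-0.00873 and -0.12) without replicate 1 of BY4741 or replicate 2 of BY4741(*yrr1*Δ). Among the 34 multidrug transporters and regulators tested, the median was 0.03, and only *SNG1* and *SNQ2* were called. *PDR5*, the broad-range ABC transporter, had 3116 and 3231 CPM in BY4741(*yrr1*Δ) against 2403 and 2395 CPM in BY4741 (0.40 ± 0.17, adjusted p = 0.197).

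The element bound by Yrr1p was searched as A or T, C, C, G, C or T, G or T, G or T, A or T, A or T on both strands of the 500 bases before each start codon. It was found in 15.9% of 5724 promoters and in 7 of the 11 targets. The matches of the called genes *SNG1* and *YLL056C* are shown, in R64, 5′ to 3′ on the strand of the gene, with the match in capitals.

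*SNG1*, chrVII:894456-894514, minus strand: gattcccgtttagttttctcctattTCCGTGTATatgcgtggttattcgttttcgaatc

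*YLL056C*, chrXII:28610-28668, minus strand: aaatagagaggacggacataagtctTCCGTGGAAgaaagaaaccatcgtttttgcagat

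These stretches begin 374 and 363 bases before the start codon. The 500 bases before *SNQ2* held no match.

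Genes of nitrogen uptake, allantoin breakdown and ammonium fixation were among the called genes. Of 42 genes of nitrogen catabolite repression, 41 were tested (the repressor *DAL80* had 1 to 6 counts). Of the 41, 4 were called lower, as were 0.581% of all genes, and 0 higher, as were 0.0363%. At an unadjusted p under 0.05, 16 were lower (39.0%, against 13.2% of all genes) and 3 higher (7.32%, against 9.75%). The median log2 fold change was -0.44, and in SD it was 0.20. *GAP1* (YKR039W, chromosome XI from 515063 to 516871), the general amino acid permease, had 43.5 and 46.2 CPM in BY4741(*yrr1*Δ) with vanillin, against 148 and 271 CPM in BY4741 (-2.22 ± 0.29, adjusted p = 0.0150). In SD its levels were 261 and 313 CPM in BY4741(*yrr1*Δ) and 233 and 198 CPM in BY4741, so that the deletion strain with vanillin lay below the 6 other libraries. *MEP2*, the high-affinity ammonium transporter and sensor, fell to 36.3 and 41.9 CPM, against 139 and 190 CPM in BY4741 (-2.07 ± 0.32, adjusted p = 0.0291). *DAL3* (YIR032C), the ureidoglycolate lyase of allantoin breakdown, had 8.38 and 9.0 CPM in BY4741(*yrr1*Δ) and 32.1 and 31.2 CPM in BY4741 (-1.86 ± 0.28, adjusted p = 0.0291). Its counts were low, 21 and 23 against 68 and 67. *GDH1*, the NADP-dependent glutamate dehydrogenase that fixes ammonium, had 1111 and 1138 CPM in BY4741(*yrr1*Δ), against 1962 and 2382 CPM in BY4741 (-0.95 ± 0.16, adjusted p = 0.0452). With a vanillin library left out, the adjusted p of these 4 genes was above 0.05 in each fit (0.099 to 0.272), except for *GAP1* without replicate 1 of BY4741 (0.018).

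By role, 6 of 12 transporters had an unadjusted p under 0.05, all lower, among them the proline permease *PUT4* (-2.04, adjusted p = 0.15), the amino acid permease *AGP1* (-0.91, adjusted p = 0.124) and the urea transporter *DUR3* (-0.83, adjusted p = 0.121). The dicarboxylate and allantoate permease gene *DAL5* was at 23.9 and 22.7 CPM in BY4741(*yrr1*Δ) and 24.1 and 14.0 CPM in BY4741, and its libraries overlapped. The 5 allantoin and urea enzymes, the 6 enzymes of arginine, proline and GABA, and the 4 vacuolar proteases all had values below 0, with 2, 3 and 2 of them at an unadjusted p under 0.05. *CAR2*, the ornithine transaminase of arginine breakdown, had 16.8 and 19.6 CPM in BY4741(*yrr1*Δ) against 55.2 and 110 CPM in BY4741 (-2.19 ± 0.59, adjusted p = 0.102), and in SD it was at 133 and 41.7 CPM in BY4741(*yrr1*Δ) against 17.7 and 38.1 CPM. The 9 regulators tested had a median of 0.36. The activator gene *GAT1*, itself repressed by good nitrogen sources, was at 49.9 and 34.8 CPM against 67.5 and 104 CPM (-1.02, adjusted p = 0.102), while *GLN3* (0.42, adjusted p = 0.320) and *URE2* (0.36, adjusted p = 0.258), whose product holds Gln3p back, had values above 0. The glutamate synthase gene *GLT1* was at 352 and 260 CPM in BY4741(*yrr1*Δ) and 186 and 199 CPM in BY4741 (0.67, adjusted p = 0.133). Among 16 amino acid permeases outside the list, 0 were called and 1 was lower at an unadjusted p under 0.05, *ALP1* (-1.59, adjusted p = 0.088).

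The GATA factors bind GATAAG, which was searched on both strands (CTTATC on the other). It was present at least once in 22.7% of the 5724 promoters and in 31 of the 41 nitrogen genes tested, and at least in 2 copies in 3.67% of the promoters and in 20 of the 41. The list was gathered from genes under these factors, so its share is no result of these data. Among 30 promoters of called lower genes, 8 (26.7%) held at least 1 copy and 6 (20.0%) at least 2. The stretches that hold the matches of the 4 called nitrogen genes are shown in the same way, with GATAAG or CTTATC in capitals.

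*GAP1*, chrXI:514586-514834, plus strand: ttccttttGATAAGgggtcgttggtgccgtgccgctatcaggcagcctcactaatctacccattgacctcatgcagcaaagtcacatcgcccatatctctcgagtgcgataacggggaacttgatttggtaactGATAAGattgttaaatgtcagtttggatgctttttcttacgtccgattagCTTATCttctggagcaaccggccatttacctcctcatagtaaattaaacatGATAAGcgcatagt

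*MEP2*, chrXIV:356980-357233, plus strand: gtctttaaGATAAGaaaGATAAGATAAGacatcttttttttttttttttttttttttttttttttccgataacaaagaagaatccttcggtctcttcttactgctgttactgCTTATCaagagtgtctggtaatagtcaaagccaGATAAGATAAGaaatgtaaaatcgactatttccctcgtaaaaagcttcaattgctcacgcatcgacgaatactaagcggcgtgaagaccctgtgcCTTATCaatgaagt

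*DAL3*, chrIX:415641-415792, minus strand: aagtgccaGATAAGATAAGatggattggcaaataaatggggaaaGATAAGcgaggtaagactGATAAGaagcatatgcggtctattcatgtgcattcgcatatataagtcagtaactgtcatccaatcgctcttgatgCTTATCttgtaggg

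*GDH1*, chrXV:1043453-1043509, minus strand: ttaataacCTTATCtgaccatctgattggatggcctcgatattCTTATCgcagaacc

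The matches number 4 in *GAP1*, 7 in *MEP2*, 5 in *DAL3* and 2 in *GDH1*, and where 2 stand as GATAAGATAAG they share a base. The stretches begin 477, 473, 175 and 467 bases before the start codon.

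The zinc genes called were *ZRT1*, *ZAP1* and *ZPS1*. Of 19 genes of zinc homeostasis, all tested, 3 were called lower, as were 0.581% of all genes, and 0 higher. At an unadjusted p under 0.05, 6 were lower (31.6%, against 13.2% of all genes) and 0 higher (against 9.75%). The median was -0.26, where that of all genes was -0.014. *ZRT1* (YGL255W, chromosome VII from 20978 to 22108), the high-affinity zinc transporter of the plasma membrane, had 345 and 615 CPM in BY4741(*yrr1*Δ) with vanillin, against 3097 and 2263 CPM in BY4741 (-2.48 ± 0.36, adjusted p = 0.0257). In SD it had 4175 and 2668 CPM in BY4741(*yrr1*Δ) and 2672 and 4123 CPM in BY4741, close to BY4741 with vanillin. *ZPS1*, a secreted protein whose relative Pra1 scavenges zinc in *Candida albicans*, fell to 26.7 and 15.7 CPM, against 388 and 192 CPM in BY4741 (-3.77 ± 0.38, adjusted p = 0.0057). Its SD levels were higher in both strains, 807 and 826 CPM in BY4741(*yrr1*Δ) and 877 and 724 CPM in BY4741. *ZAP1*, the activator gene, had 44.7 and 48.9 CPM in BY4741(*yrr1*Δ) and 116 and 100 CPM in BY4741 (-1.21 ± 0.20, adjusted p = 0.0396). *LOG1*, which lies 283 bases from *ZAP1* and is read away from it, also fell, to 244 and 270 CPM, against 544 and 540 CPM in BY4741 (-1.07 ± 0.17, adjusted p = 0.0292).

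The next zinc genes were *ZRT3*, which releases zinc from the vacuole, at 168 and 164 CPM in BY4741(*yrr1*Δ) against 410 and 313 CPM in BY4741 (-1.12, adjusted p = 0.068), the alcohol dehydrogenase *ADH4* (-1.22, adjusted p = 0.127) and the vacuolar transporter *COT1* (-0.52, adjusted p = 0.142). The low-affinity transporter *ZRT2* (325 and 336 against 278 and 346 CPM) and the vacuolar importer *ZRC1* (366 and 349 against 350 and 370 CPM) had libraries that overlapped between the strains. *ZRG17*, a partner in zinc transport into the endoplasmic reticulum, had a value of 0.22 (adjusted p = 0.530). The 4 *IZH* membrane receptor homologues had 0 members at an unadjusted p under 0.05. Zap1p binds a zinc response element, searched here as ACCTT, any base and AAGGT, a palindrome, which occurred in 9 of 5724 promoters (0.157%) and in 2 of the 19 zinc genes, *ZRT1* and *ZRG17*. The match of *ZRT1* is shown in capitals, and *ZPS1* and *ZAP1* held none in this window in this strict spelling.

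*ZRT1*, chrVII:20749-20809, plus strand: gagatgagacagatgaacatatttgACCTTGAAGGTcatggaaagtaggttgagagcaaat

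The reductase genes moved in both directions. *ADH7* (YCR105W, chromosome III from 309070 to 310155), an NADPH-dependent alcohol dehydrogenase that reduces vanillin, had 500 and 676 CPM in BY4741(*yrr1*Δ) with vanillin, against 109 and 80.2 CPM in BY4741 (2.63 ± 0.27, adjusted p = 0.0057). It was the only reductase called higher. Of 45 carbonyl reductases and dehydrogenases listed, 42 were tested. Of the 42, 3 were called lower, as were 0.581% of all genes, and 1 higher, as were 0.0363%. At an unadjusted p under 0.05, 15 were lower (35.7%, against 13.2% of all genes) and 2 higher (4.76%, against 9.75%). The median was -0.22, where that of all genes was -0.014. *BDH1* (YAL060W), the butanediol dehydrogenase, had 268 and 267 CPM in BY4741(*yrr1*Δ) and 708 and 692 CPM in BY4741 (-1.39 ± 0.16, adjusted p = 0.0083). In SD the order was the other way, with 690 and 625 CPM in BY4741(*yrr1*Δ) and 443 and 417 CPM in BY4741. That difference was not called (0.61, unadjusted p = 0.003, adjusted p = 0.9995, edgeR). *OYE3*, an old yellow enzyme that reduces double bonds next to a carbonyl, fell to 7.98 and 7.83 CPM, against 24.5 and 35.9 CPM in BY4741 (-1.93 ± 0.33, adjusted p = 0.0427). The third of the lower reductases was the Yrr1p target *YLL056C*, given above.

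*ADH6*, the closest relative of *ADH7*, had 559 and 452 CPM in BY4741(*yrr1*Δ) and 346 and 449 CPM in BY4741 (0.35, adjusted p = 0.375). *OYE2* was at 1521 and 1492 against 1748 and 1663 CPM (-0.18, adjusted p = 0.573). The quinone oxidoreductase relatives *YML131W* (-1.11, adjusted p = 0.058) and *YLR460C* (1.12, adjusted p = 0.089) had values on opposite sides of 0. All 6 aldo-keto reductases had values below 0, and 5 had an unadjusted p under 0.05, *ARA1* (-0.58), *YJR096W* (-0.61), *YDL124W* (-0.54), *YPR1* (-0.50) and *GRE3* (-0.60), but their lowest adjusted p was 0.130. The fitted value of the sorbitol dehydrogenase *SOR1* was -3.46 (adjusted p = 0.094), from 10 and 0 counts against 71 and 24. Its near-identical copy *SOR2* had 29 and 28 against 0 and 24 counts, so that the split of reads between the pair is uncertain. Of the 6 aldehyde dehydrogenases none was called, and the mitochondrial *ALD4* had 299 and 260 CPM in BY4741(*yrr1*Δ) against 556 and 720 CPM in BY4741 (-1.19, adjusted p = 0.058).

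**Figure D2:**
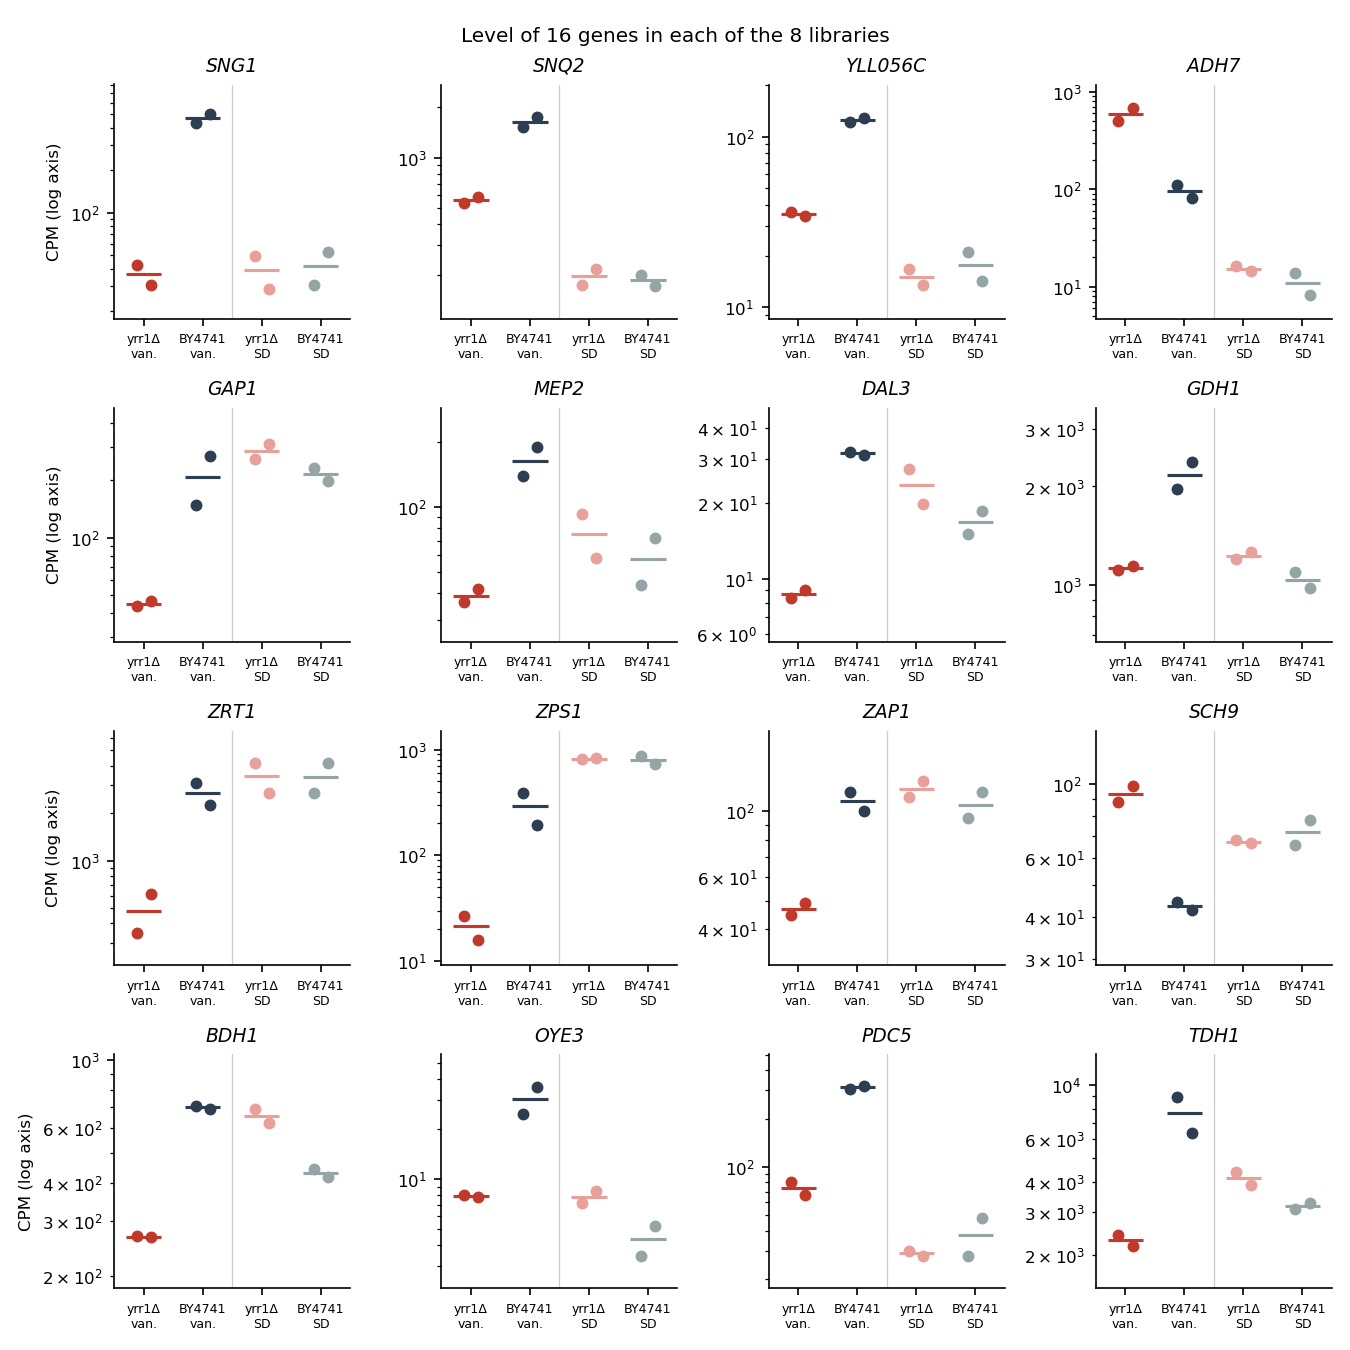
Level of 16 genes in CPM (log axis, scaled per panel) in each of the 8 libraries, with vanillin on the left of each panel and in SD on the right. Points are libraries and bars are the mean of 2; with vanillin the strains do not overlap in any panel, and *ADH7* and *SCH9* are the panels in which BY4741(*yrr1*Δ) is higher.

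The other called genes were in no list fixed for nitrogen, zinc, reductases or Yrr1p. *PDC5*, a pyruvate decarboxylase that thiamine represses, had 81.0 and 66.9 CPM in BY4741(*yrr1*Δ) with vanillin, against 307 and 319 CPM in BY4741 (-2.08 ± 0.25, adjusted p = 0.0099). *PDC6*, the minor isoform, fell to 18.7 and 18.8 CPM, against 46.2 and 55.0 CPM (-1.43, adjusted p = 0.0427). *TDH1*, the glyceraldehyde-3-phosphate dehydrogenase isoform known from stressed and slowly growing cells, had 2402 and 2181 CPM in BY4741(*yrr1*Δ) and 8944 and 6377 CPM in BY4741 (-1.74 ± 0.20, adjusted p = 0.0084). *ENO1*, an enolase isoform, was at 4496 and 2930 against 9604 and 9400 CPM (-1.36, adjusted p = 0.0452). *TDH1* and *ENO1* had expected counts that were not whole numbers in 5 and 7 of the 8 libraries, so that part of their reads was shared with paralogs. *INO1*, the inositol phosphate synthase, had 3554 and 2938 CPM in BY4741(*yrr1*Δ), against 9072 and 8164 CPM in BY4741 (-1.41 ± 0.18, adjusted p = 0.0144). In SD *INO1* was at 398 and 499 CPM in BY4741(*yrr1*Δ) and 345 and 340 CPM in BY4741.

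*GPG1*, a protein proposed to act with the G protein subunit Gpa2p in glucose signalling, fell to 30.7 and 29.3 CPM, against 211 and 123 CPM in BY4741 (-2.47 ± 0.27, adjusted p = 0.0080). *SCH9*, the protein kinase that carries TORC1 signals to ribosome production, was higher, with 88.6 and 98.6 CPM in BY4741(*yrr1*Δ) and 44.3 and 42.0 CPM in BY4741 (1.12 ± 0.19, adjusted p = 0.0410). Its SD levels lay between these, at 67.8 and 66.5 CPM in BY4741(*yrr1*Δ) and 65.6 and 77.9 CPM in BY4741. *EEB1*, an ethyl ester synthase, had 81.4 and 58.3 against 245 and 176 CPM (-1.59, adjusted p = 0.0291). *HBN1*, a nitroreductase-like protein, had 46.3 and 39.5 against 129 and 127 CPM (-1.58, adjusted p = 0.0177). The other lower genes were *CNL1* of the endosomal BLOC-1 complex, *APD1*, *EMI1*, the cystine transporter homologue *ERS1*, the sulfurtransferase *RDL1*, the D-amino acid acetyltransferase *HPA3*, *TIM11* (a subunit of ATP synthase) and *YOR289W*, with log2 fold changes of -1.08 (*YOR289W*) to -1.51 (*HPA3*) and adjusted p-values of 0.0257 to 0.0467. *EMI1* overlaps *GRX2* and *HPA3* overlaps *YEL067C* in the annotation, and strand use in the counting is not given in the sources used here. The calls *RDN37-1* and *RDN37-2* are copies of the 37S rRNA precursor gene with equal counts in every library, 105 and 101 CPM in BY4741(*yrr1*Δ) against 307 and 502 CPM in BY4741 for each copy (-1.97, adjusted p = 0.0396). The RDN37 copies together took 0.0213% and 0.0221% of the counts in BY4741(*yrr1*Δ) with vanillin and 0.0592% and 0.0934% in BY4741. All rRNA genes together took 0.331% and 0.225% in BY4741(*yrr1*Δ) and 0.260% and 0.267% in BY4741; the part of carried-over rRNA in these calls was not tested.

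Several of the remaining lists had many members that differed in 1 direction, and almost no calls. The 36 respiratory chain and ATP synthase genes tested had a median of -0.67, 35 had values below 0, and 20 were lower at an unadjusted p under 0.05 (55.6%, against 13.2% of all genes), with 0 called; another 4 had too few counts to be tested, and *TIM11*, called lower above, is not in the list. *COX5B*, a subunit of cytochrome oxidase, was at 60.6 and 56.7 CPM in BY4741(*yrr1*Δ) and 135 and 107 CPM in BY4741 (-1.04, adjusted p = 0.058), and *ATP16* of ATP synthase at 70.2 and 90.4 against 184 and 154 CPM (-1.07, adjusted p = 0.073). The 32 antioxidant genes had a median of -0.38 with 14 lower and 1 higher at that p, led by the mitochondrial peroxiredoxin *PRX1* at 179 and 165 CPM against 406 and 358 CPM (-1.15, adjusted p = 0.066). The major peroxiredoxin *TSA1* had 1804 and 1705 CPM in BY4741(*yrr1*Δ) and 3144 and 2890 CPM in BY4741 (-0.78, adjusted p = 0.066). The 38 general stress genes had a median of -0.37 with 13 lower and 0 higher at that p, among them the glycogen phosphorylase *GPH1* (-1.79, adjusted p = 0.079) and the small heat shock protein *HSP26* (-0.90, adjusted p = 0.079). The 25 iron genes had 10 lower and 3 higher at that p and a median of -0.32, with the cell wall mannoprotein *FIT2* at -2.28 (adjusted p = 0.084), and 0 were called. Of the 21 thiamine genes tested, 7 were lower and 1 was higher at that p, and only *PDC5* was called. *THI4*, the thiazole synthase, was at 55.5 and 47.0 CPM against 107 and 110 CPM (-1.08, adjusted p = 0.058), and *PDC2*, the activator of the pyruvate decarboxylase genes, at 71.8 and 78.3 against 43.4 and 46.2 CPM (0.74, adjusted p = 0.0997).

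Protein synthesis was covered by 3 lists. The 33 translation factors had a median of 0.35, with 11 higher and 0 lower at an unadjusted p under 0.05 (33.3%, against 9.75% of all genes) and 0 called. *NIP1*, a subunit of eIF3, had 256 and 286 CPM in BY4741(*yrr1*Δ) and 125 and 101 CPM in BY4741 (1.26 ± 0.25, adjusted p = 0.065; 0.0010 in DESeq2), and *TIF4631*, eIF4G1, had 446 and 475 against 238 and 203 CPM (1.06 ± 0.30, adjusted p = 0.106; 0.0163 in DESeq2). *NEW1*, an ABC protein of translation termination, was at 419 and 341 against 172 and 159 CPM (1.20, adjusted p = 0.101). Of 61 ribosome biogenesis genes tested, 37 were higher (60.7%, against 9.75% of all genes) and 0 lower at that p, with 0 called. Their median was 1.03, where that of all genes was -0.014, and 59 had values above 0. Of 134 cytosolic ribosomal protein genes, 12 were lower and 0 higher at that p, with 0 called, and the median was -0.13 (0.02 with library size alone). The lists of sulfur amino acid synthesis, other amino acid synthesis, phosphate, hexose transport and cell wall mannoprotein genes, 25 to 71 genes listed each, had 0 calls and 0 to 8 members at an unadjusted p under 0.05 in each direction. Within hexose transport, *HXT2* was at 652 CPM in replicate 1 of BY4741(*yrr1*Δ) and 97.4 CPM in replicate 2, against 86.8 and 103 CPM in BY4741, and its libraries overlapped. With library size alone, the medians of the respiratory, antioxidant, general stress, iron and thiamine lists stayed below 0 (-0.16 to -0.52). Those of the translation factors (0.51) and the ribosome biogenesis genes (1.18) stayed above 0.

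**Figure D3:**
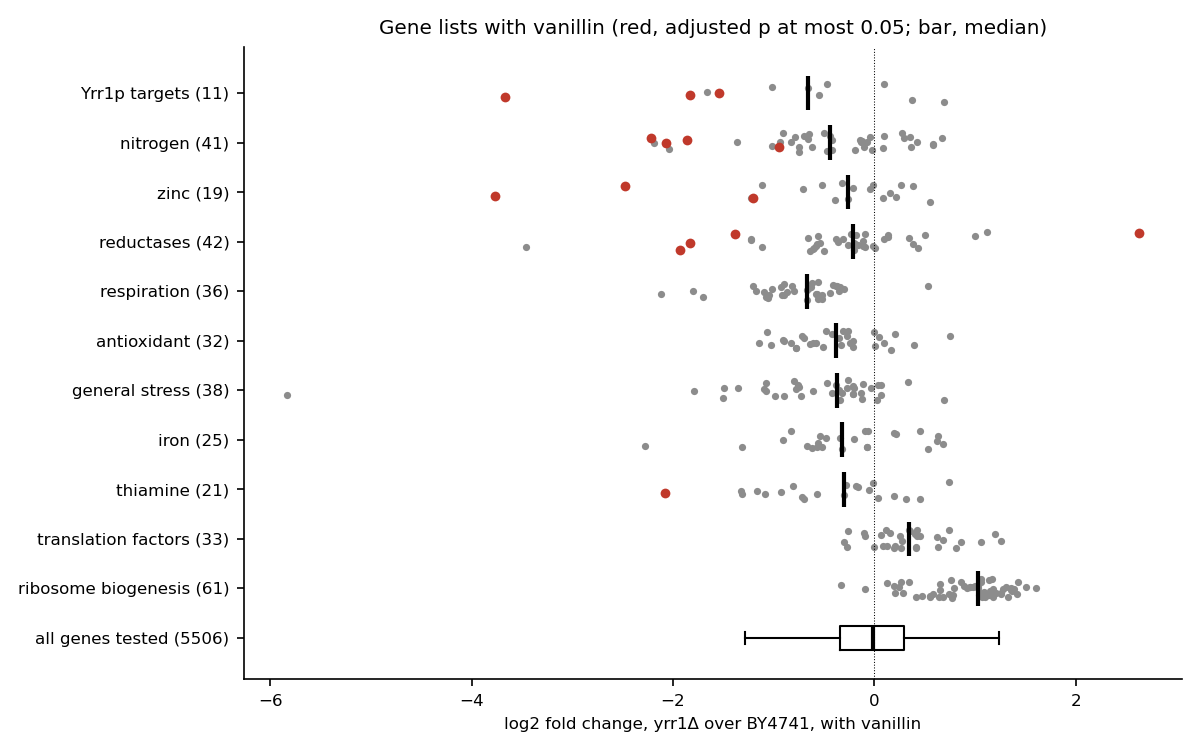
Log2 fold change of BY4741(*yrr1*Δ) over BY4741 with vanillin for the members of 11 gene lists, 1 point per gene tested, with the median as a bar and called genes in red. The box at the bottom shows all 5506 genes tested (median, quartiles, and whiskers to 1.5 times the quartile range), centred on -0.014; of the 11 medians the respiratory list has the lowest, -0.67, and the ribosome biogenesis list the highest, 1.03.

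The differences with vanillin were set beside those in SD, which came from other libraries. In SD, 1 gene was called (0.0182%), *YRR1* itself, and 98 had an unadjusted p under 0.05 (1.78%). None of the other 33 genes called with vanillin was called in SD, where their log2 fold changes ran from -0.39 (*PDC5*) to 0.85 (*OYE3*). Of the 31 genes other than *YRR1* that were lower in BY4741(*yrr1*Δ) with vanillin, 26 had a value above 0 in SD. Wider sets of genes also tended to the other sign in SD, where few genes differed by themselves. Of the 726 genes that were lower with vanillin at an unadjusted p under 0.05, 87.9% had a value above 0 in SD, and of the 537 higher ones 14.7% did, where the share among all genes was 49.0%. The medians of these sets in SD were 0.24 and -0.22. The replicate differences of the 2 strains in SD were correlated (-0.58), so many genes varied together there and their signs are not independent. The part of this shared variation in the turn was not tested. The interaction of strain and vanillin passed an adjusted p of 0.05 for 5 of the genes described here, *SNG1*, *ZPS1*, *GPG1*, *BDH1* and *TDH1*. For *GAP1*, *MEP2*, *ZRT1* and *ADH7* its adjusted p was 0.074, 0.101, 0.101 and 0.101. The interaction uses the same vanillin libraries by which these genes were chosen, so it is no separate evidence. The neighbours of the deleted gene were not called with vanillin. *PNS1* had 55.5 and 32.9 CPM in BY4741(*yrr1*Δ) and 50.5 and 97.9 CPM in BY4741, which overlapped, and *DDP1* had 48.7 and 43.8 against 89.2 and 71.8 CPM (-0.80, adjusted p = 0.090), which did not.

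**Figure D4:**
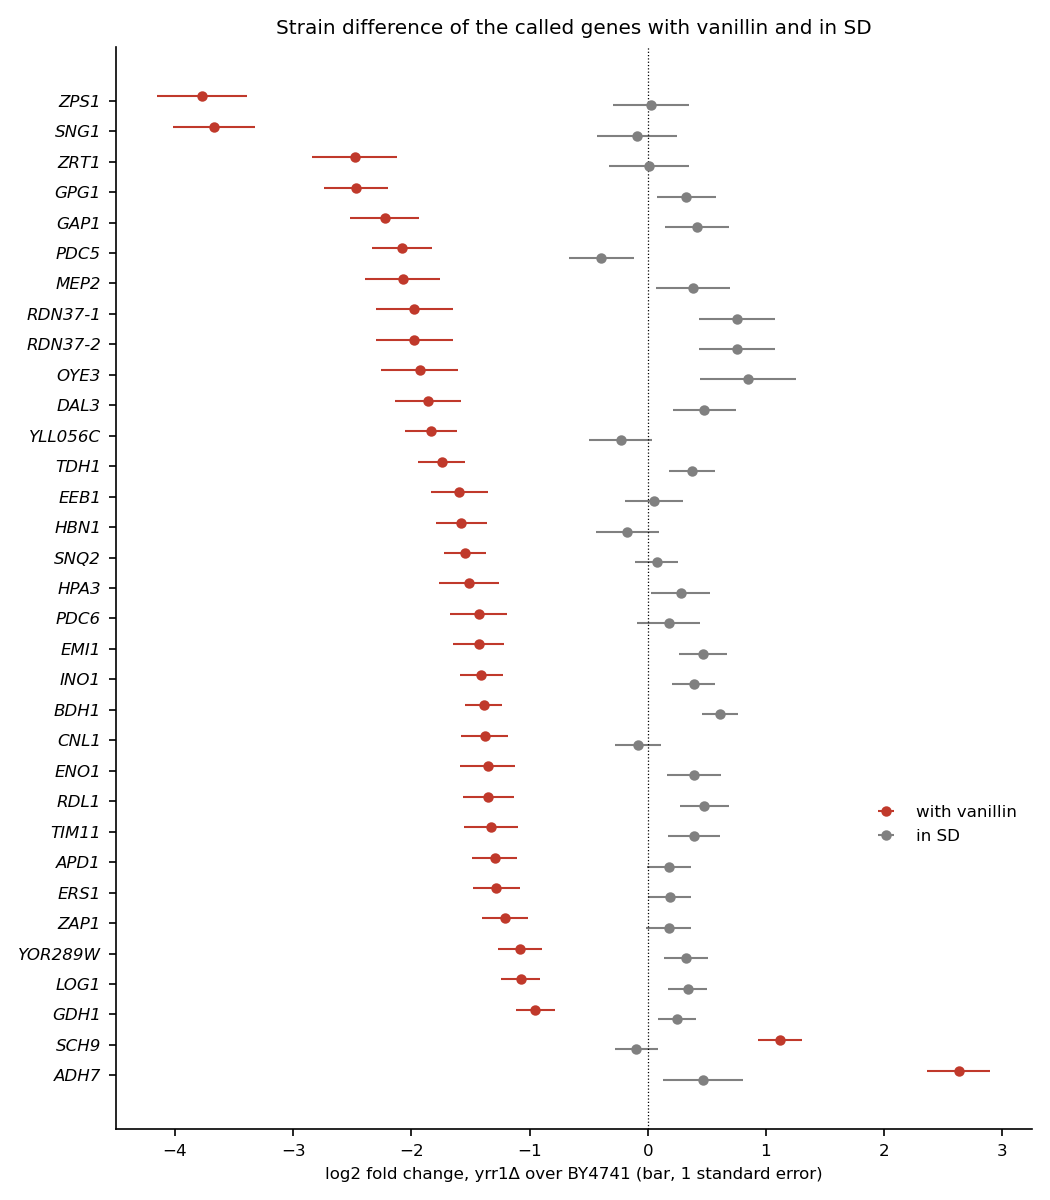
Log2 fold change of BY4741(*yrr1*Δ) over BY4741 for the 33 called genes other than *YRR1*, with vanillin (red) and in SD (grey), bars showing 1 standard error, ordered by the value with vanillin. The vanillin values run from -3.77 (*ZPS1*) to 2.63 (*ADH7*), while the SD values lie between -0.39 and 0.85.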

How the data were processed

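Poly(A) RNA of 8 libraries was sequenced on an Illumina instrument. The authors deposited, per library and gene, an expected count without normalization and an FPKM value. The submitters' processing notes name build R64, and the aligner and counter are not given in the sources used here. The authors' comparison tables (mean FPKM, log2 ratios, a score) were not used, except that the mean FPKM with vanillin, whose headers name 6 mM where all labels give 5 mM, equalled the means of the vanillin libraries within 0.01 for 5748 of 5748 genes.

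Expected counts were rounded and fitted in R 4.3.3 with edgeR 4.0.16 (filterByExpr, TMM, 1 quasi-likelihood model of 4 conditions, no block), and p-values were Benjamini-Hochberg adjusted over 5506 of 5782 genes. A called gene has an adjusted p of at most 0.05. Standard errors are the log2 fold change over the root of the F statistic. Values with ± are log2 fold changes with this error, n = 2 per strain, and CPM use library totals (2195324 to 2453837 counts) multiplied by their TMM factors. With 2 libraries per strain only large differences can pass. The bound for *YRR1* takes 3 counts per library as its floor, and covers counting error only.

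Genes named are all called genes, the Yrr1p targets, *YRR1* and its neighbours, the 3 nitrogen, zinc and reductase genes of lowest p, and *ADH7*, *PDR5*, *TIF4631* and *NIP1*; any other was chosen after its values were seen. Members and lists were chosen with earlier results of these data known, and lists are described by counts and medians. Alternatives were DESeq2 1.42.0 and its size factors, library size alone, other filters, limma 3.58.1 (voom, or log2 of FPKM plus 1 or 0.1), only the vanillin libraries, a replicate block and each library left out. Promoters are R64 reference sequence. Growth and enzyme data were not analysed here.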

Additional observations from a re-analysis of the deposited data

Results flagged for a closer look

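The interaction of strain and vanillin (difference with vanillin minus difference in SD) passed for 5 of the genes described (adjusted p = 0.037 for each, edgeR). These genes were described for their difference with vanillin, and the interaction uses the same libraries. It is thus no separate evidence, and it was not fitted with a library left out. The interaction was -3.80 on the log2 scale for *ZPS1*, -3.58 for *SNG1*, -2.80 for *GPG1*, -2.12 for *TDH1* and -2.0 for *BDH1*.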

How the results depend on the processing

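All 34 called genes kept their direction in all 18 alternatives, a weak check for genes chosen by their large differences. Of 612 values, 414 kept the call and 198 lost it. With 2 libraries per strain the calls depended on each vanillin library: leaving out 1 library at a time gave 1 to 52 genes lower and 0 to 2 higher, with medians of -0.56 to -0.36 for the nitrogen, -0.43 to -0.22 for the zinc and -0.34 to -0.15 for the reductase list; a lone library is then assumed to vary like the other groups. DESeq2 called 165 lower and 99 higher, and 27 at the study's limits; the 4 vanillin libraries alone gave 161 and 156. Library size alone gave 8 higher, FPKM plus 1 or 0.1 gave 9 each, and 1 gene met the study's limits with library size alone and 1 with FPKM plus 0.1. These 3 scales moved the list medians to -0.29, -0.28 and -0.29 (nitrogen), -0.10, -0.089 and -0.090 (zinc) and -0.059, -0.051 and -0.052 (reductases), where the median of all genes was 0.14 to 0.15. *YOR1* ran from -0.12 (leaving out the second vanillin library of BY4741(*yrr1*Δ)) to 0.28, and was -0.00873 leaving out the first of BY4741. The cause of these changes was not tested. The replicate numbers did not pair the vanillin samples (correlation of the replicate differences 0.013), and a fit with the replicate block called 11 lower and 1 higher.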
